A study of Saccharomyces cerevisiae with 180 samples.

Results

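Segregants 9-4-d and 14-6-d were haploid progeny of a yeast cross in which whole chromosomes stood above their usual transcript level. In 9-4-d the raised chromosome was XIII, and in 14-6-d the raised chromosomes were IX and IV. They were 2 of 86 segregants, and they were chosen by the measured values themselves. Each gene was centred on its mean over segregants, and a chromosome counted as raised where the median over its genes was over 0.5 log2 units. Everything said below of these strains comes from the arrays on which they were chosen, so it is a description with no test.

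The series measured messenger RNA of Saccharomyces cerevisiae on 2-colour arrays, each culture against a pool of strain BY4716. There was 1 culture of segregant 9-4-d and 1 of segregant 14-6-d. The reference was 80 segregants without a raised chromosome, 1 culture each, and the parents had 2 cultures each. Each culture had a dye-swapped pair of arrays, a repeat measurement of the culture and not of the strain. The segregants came from a cross of BY4716, a laboratory strain, with RM11-1a, which descends from a vineyard isolate and is taken here as the strain labelled RM11. BY4716 is of mating type alpha and lacks LYS2. RM11-1a is an a strain without functional LEU2, URA3 or HO. The age and phase of the cultures are not given in the sources used here.

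A haploid yeast cell normally holds each chromosome once. When chromosomes fail to part at cell division, a daughter cell can keep an added copy, and such cells are known to make more RNA from most genes of that chromosome. Added chromosomes are also known, as background, to slow growth and to be accompanied by changes of stress and ribosome genes elsewhere in the genome. The arrays measured RNA, so whether 9-4-d or 14-6-d carried an added chromosome was not tested. A culture in which some cells have strongly raised levels and a culture in which all cells have mildly raised levels cannot be told apart in bulk RNA.

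A level is given here as the log2 ratio of a culture over the pool, on the Cy3-titled array and then on the Cy5-titled array. A difference is the mean of both arrays of a strain minus the mean of the 80 reference segregants, so a difference of 1 would be a doubling. A gene passed as higher or lower where its difference was at least 1.5-fold, had the same sign on both arrays and lay at least 2 SDs from the reference mean, the SD being that of the reference segregants. Of 443 genes of chromosome XIII with a probe, 415 could be compared in 9-4-d. In 14-6-d it was 202 of 207 genes of chromosome IX and 699 of 719 of chromosome IV. These genes had values on both arrays of the strain and in at least 80 percent of the reference segregants.

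The arrays of 9-4-d held 5643 and 6229 values and correlated across genes with r = 0.791. Those of 14-6-d held 6379 and 6475 values, with r = 0.843. Over the reference segregants that r lay between 0.371 and 0.896, with a median of 0.725. These r values are across genes, which are not independent of each other, and describe the arrays alone.

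The genes specific to alpha and a cells were also read. The alpha-factor gene MF(ALPHA)1 had levels of 0.26 and 0.33 in 9-4-d, and STE3, the receptor made by alpha cells, had -0.37 and -0.15, near the BY4716 mean of -0.09. AGA2, an agglutinin subunit of a cells, stood at -0.20 and 0.03 in 9-4-d. In 14-6-d STE2, the receptor made by a cells, had levels of 3.71 and 4.03, and AGA2 had 2.48 and 3.35. STE3 was at -3.78 and -4.86 there, against an RM11 mean of -6.29, and MATALPHA1, the alpha activator, was at -2.17 and -2.46, against -2.70 in RM11. Not every marker followed. Of the 6 alpha-specific genes, all 6 were above the reference mean in 9-4-d and all 6 below it in 14-6-d. SAG1, the agglutinin of alpha cells, was nevertheless at -1.43 and -1.22 in 9-4-d, below the BY4716 mean of 0.05. Of the 7 a-specific genes, 4 could be compared in 9-4-d and all 4 were below the reference mean, though STE6, the exporter of a-factor, had 1.74 on the Cy3-titled array and -0.35 on the other. In 14-6-d 5 of 7 a-specific genes were above the reference mean, and the a-factor gene MFA1, on chromosome IV, was among the others, at -0.14 and 0.86. LEU2 was at -4.94 and -4.97 in 9-4-d and at -5.32 and -5.42 in 14-6-d, against an RM11 mean of -5.68. URA3 was likewise at -5.64 and -5.86 in 9-4-d and at -4.93 and -5.28 in 14-6-d, against -4.66 in RM11. Levels this low are those of genes the parent lacks, and the size of a difference that reaches them may be limited by how low the signal can go, which was not tested.

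Genes that both haploid types express and a/alpha diploids switch off were also read. Of the 10 listed, 9 were below the reference mean in 9-4-d, with a median difference of -0.28 that lay below 75 of 80 reference segregants. STE4, the beta subunit of the pheromone G protein, was the member that passed as lower there, with levels of -0.84 and -0.47. In 14-6-d the 9 listed genes off the raised chromosomes had a median difference of -0.47, below 77 of 80 reference segregants, and 0 passed. STE5, the pheromone pathway scaffold, lies on chromosome IV and was at 0.58 and 0.62 in 14-6-d. Their part in the results below was not tested.

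Among 1376 medians of a chromosome in a segregant, 7 were over the limit of 0.5. Chromosome XIII in 9-4-d had 0.741, and chromosomes IV and IX in 14-6-d had 0.685 and 0.651. The other 4 were chromosome II in segregants 13-2-c (0.777), 8-1-a (0.711), 10-1-c (0.629) and 15-5-b (0.611), the last being the lowest value over the limit. The highest values under it were 0.137, for chromosome VI in 9-2-d, and 0.117, for chromosome I in 15-6-c. No median lay between 0.137 and 0.611.

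**Figure D1:**
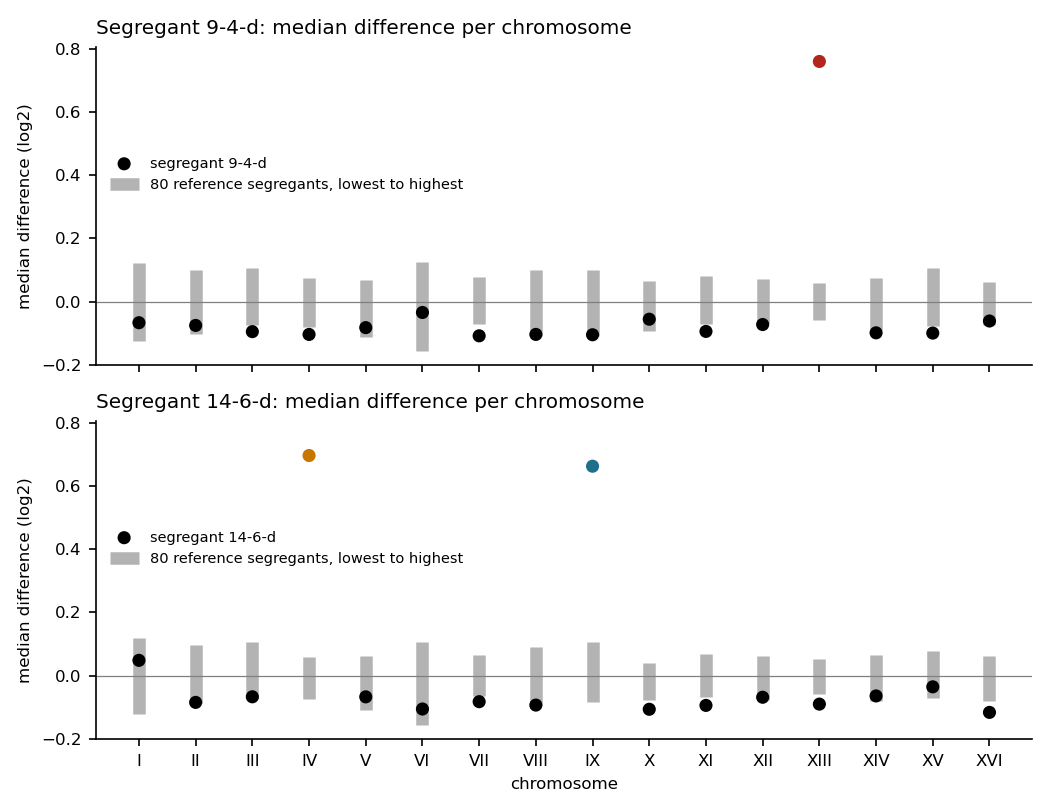
Median difference from the reference segregants over the genes of each of the 16 chromosomes (log2), for segregant 9-4-d above and 14-6-d below; grey bars span the 80 reference segregants. Chromosome XIII stands at 0.76 in 9-4-d, chromosomes IV and IX stand at 0.70 and 0.66 in 14-6-d, and the other chromosomes lie between -0.12 and 0.05.

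In 9-4-d the genes of chromosome XIII had a median difference of 0.76 log2 units, which is 1.69-fold. The reference segregants lay between -0.06 and 0.06 for the same median (SD 0.0258, n = 80). The median was 0.74 on the Cy3-titled array and 0.75 on the Cy5-titled array. Of the 415 genes, 399 lay above the reference mean and 16 below it. The quartiles of the genes were 0.53 and 0.98. The strain passed as higher in 263 genes, or 63.4 percent, and as lower in 0. Over all 5028 genes compared in this strain 6.15 percent passed as higher and 3.02 percent as lower. The level was above that of every reference segregant in 250 genes of chromosome XIII, or 60.2 percent, against 5.65 percent of all genes. The strain was chosen on these genes, so nothing is read from the excess.

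In 14-6-d the median difference was 0.66 for chromosome IX, or 1.58-fold, and 0.70 for chromosome IV, or 1.62-fold. The reference segregants had SDs of 0.0293 and 0.0284 for these medians (n = 80), and their highest values were 0.11 and 0.06. The Cy3-titled array gave 0.64 for chromosome IX and 0.63 for chromosome IV, and the Cy5-titled array gave 0.72 and 0.78. Of the 202 genes of chromosome IX, 103 (51 percent) passed as higher and 1 as lower. Of the 699 genes of chromosome IV, 405 (57.9 percent) passed as higher and 8 as lower. Over all 5465 genes compared in this strain 10.7 percent passed as higher and 4.94 percent as lower. The level was above every reference segregant in 97 genes of chromosome IX (48 percent) and in 384 of chromosome IV (54.9 percent), against 9.9 percent of all genes. Among the reference segregants themselves, at most 62 genes of chromosomes IX and IV passed as higher, with a median of 4.5.

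All 3 medians were below a doubling. They are relative to a table whose arrays had been centred on a mean of 0, and the other genes of each strain lay slightly below the reference. Those other genes had a median of -0.09 in 9-4-d and -0.08 in 14-6-d. Measured from these medians, chromosome XIII was 0.85 higher in 9-4-d, and chromosomes IX and IV were 0.74 and 0.78 higher in 14-6-d. The 15 other chromosomes of 9-4-d had medians between -0.11 and -0.03, and the 14 others of 14-6-d had medians between -0.12 and 0.05.

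**Figure D2:**
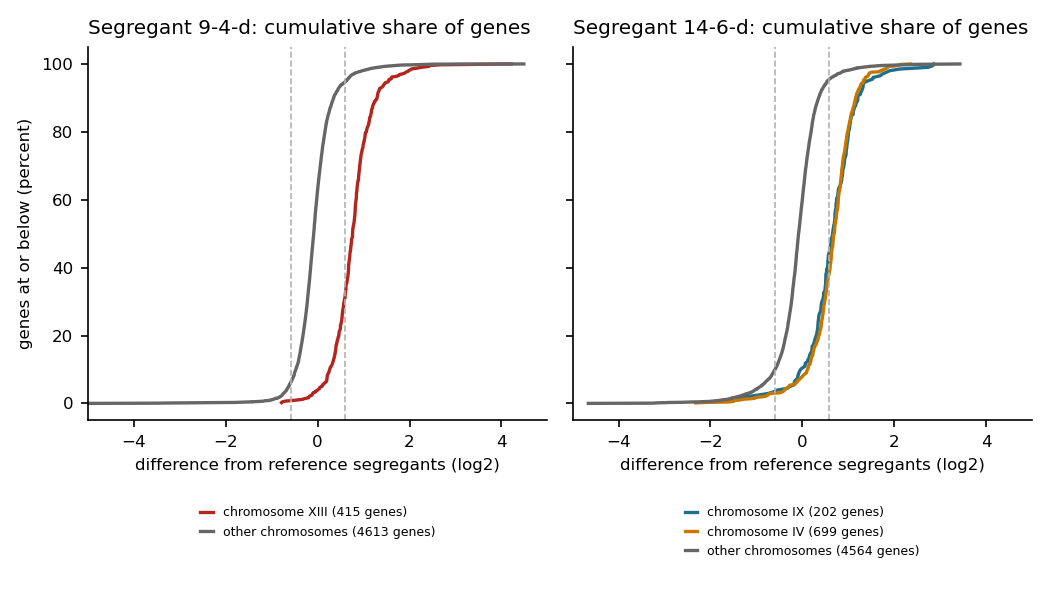
Cumulative share of genes (percent) against the difference from the reference segregants (log2), for segregant 9-4-d left and 14-6-d right, with raised chromosomes in colour and the other chromosomes in grey; dashed lines mark 1.5-fold. The curves of the raised chromosomes are shifted to the right by 0.85 (XIII), 0.74 (IX) and 0.78 (IV) at their medians.

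Both arms of each raised chromosome had raised medians. On chromosome XIII of 9-4-d the left arm had a median of 0.71 (121 genes) and the right arm 0.77 (294 genes). On chromosome IX of 14-6-d the arms had 0.64 (163 genes) and 0.71 (39 genes), left and then right, and on chromosome IV 0.67 (217 genes) and 0.70 (482 genes). Medians were also taken over windows of 11 neighbouring genes. All 405 windows of chromosome XIII were above 0 in 9-4-d, from 0.46 around MMT1 to 1.12 around CSI1, and 398 were above every reference segregant. All 192 windows of chromosome IX were above 0 in 14-6-d, from 0.21 around HYR1 to 0.99 around ATG45, and 177 were above every reference segregant. All 689 windows of chromosome IV were above 0, from 0.34 around GMC1 to 1.28 around ENA2, and 683 were above every reference segregant.

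The outermost genes of chromosomes IX and IV stood lower than the rest. In 14-6-d the 10 measured genes nearest the left end of chromosome IX had a median of 0.29 and those nearest the right end 0.10, with 5 of the 10 below the reference mean, against 0.70 over its other 182 genes. On chromosome IV the same ends had 0.49 and 0.32, against 0.70 over the other 679 genes. On chromosome XIII of 9-4-d the ends had 0.80 and 0.67, against 0.76 over the other 395 genes. Genes near chromosome ends often belong to families of similar sequence, whose copies a probe cannot tell apart, and that share was not tested. Windows elsewhere reached 0.53 in 9-4-d, around FDH2 on chromosome XVI. In 14-6-d they reached 1.17, around ASP3-1 on chromosome XII, where copies of an asparaginase gene lie side by side. Reference segregants reached 0.81 in windows of chromosome XVI and 2.86 in those of chromosome XII. The lowest windows elsewhere were -0.55 in 9-4-d, around ENA2, and -0.85 in 14-6-d, around YPL276W on chromosome XVI. Reference windows of chromosome XVI reached down to -0.72 in the comparison of 14-6-d.

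**Figure D3:**
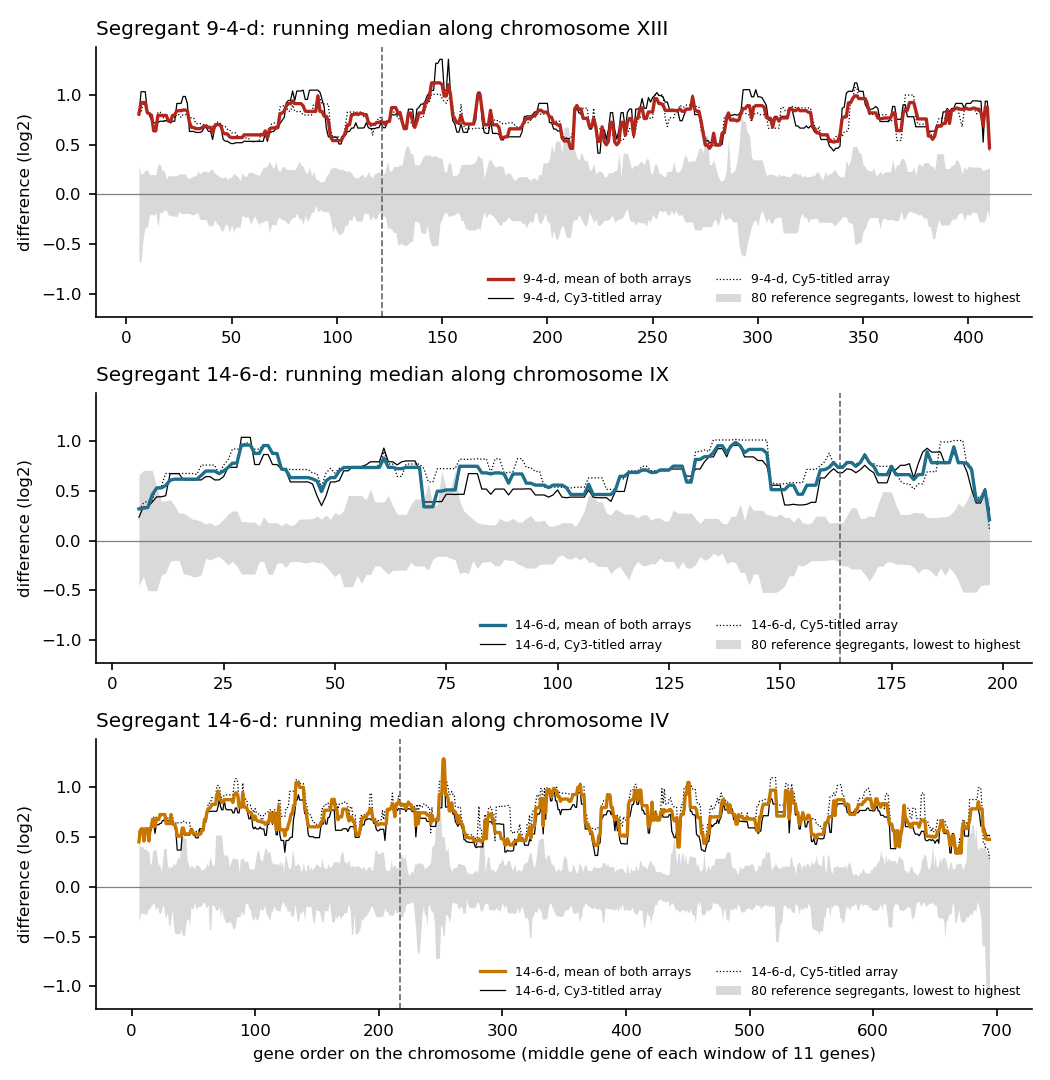
Running median over windows of 11 genes in chromosome order (log2 difference from the reference segregants), for chromosome XIII of segregant 9-4-d and chromosomes IX and IV of segregant 14-6-d; coloured lines are the mean of both arrays, thin lines the single arrays, grey the range of 80 reference segregants, and dashed lines the change of arm. Every window of the coloured lines lies above 0.

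The spread of differences within a raised chromosome was compared with how much its genes vary among the reference segregants. On chromosome XIII the genes were divided into terciles by their reference SD. In the tercile of lowest SD (139 genes) the interquartile range was 0.28 log2 units around a median of 0.76 in 9-4-d. In the tercile of highest SD (138 genes) that range was 0.89 around 0.85, and 12 of the 16 genes below the reference mean were there. In 14-6-d the interquartile ranges were 0.43, 0.40 and 0.93 on chromosome IX, from the tercile of lowest to that of highest SD, and 0.34, 0.46 and 0.87 on chromosome IV. The medians were 0.80, 0.60 and 0.51 on chromosome IX, in the same order, and 0.77, 0.68 and 0.59 on chromosome IV. Of the 55 genes of chromosome IV below the reference mean, 42 were in the tercile of highest SD. Terciles by gene length gave 0.67, 0.76 and 0.82 on chromosome XIII, from short to long, 0.56, 0.73 and 0.71 on chromosome IX, and 0.60, 0.69 and 0.78 on chromosome IV. The reason for this order was not tested.

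The highest gene of chromosome XIII in 9-4-d was CYB2, the mitochondrial lactate dehydrogenase. It had levels of 6.13 and 3.27, against a reference range of -1.49 to 4.37 with a median of 0.37. Its difference was 4.21, or 18.6-fold, but its arrays differed widely and the Cy5-titled one was inside the reference range. TSL1, a subunit of the trehalose synthase, had levels of 2.45 and 2.46 and a reference maximum of 1.56. DDR48, a DNA damage-responsive protein, had 2.20 and 2.08, and HOR7, which responds to high osmolarity, had 1.82 and 2.34. Both lay above reference maxima of 1.54 and 1.52. The differences of these 3 genes were 2.42, 2.42 and 1.97, and all passed as higher. ISF1 (2.26), URA10, a minor enzyme of pyrimidine synthesis (2.05), YMR196W (2.02) and YMR090W (1.98) passed as well.

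MSC1 and GAD1, the glutamate decarboxylase, were among the 10 highest without passing, since they vary widely among segregants. MSC1 had levels of 3.04 and 2.78 in 9-4-d, inside a reference range of -2.44 to 3.08, and GAD1 had 1.86 and 2.15, above its reference maximum of 1.71. No gene of chromosome XIII passed as lower. ADH2, the alcohol dehydrogenase used on ethanol, was lowest at a difference of -0.79, with levels of -0.82 and -0.90. FET3, the iron uptake oxidase, had a difference of -0.77, ASC1, a protein of the small ribosomal subunit, -0.69, and RPL15B, a ribosomal protein, -0.48. IMD4, of guanine nucleotide synthesis, stood at -0.33 and PHO84, the phosphate transporter, at -0.28. NGL2, ATG16, PLB2 and IMP2 stood between -0.20 and -0.13, and all 10 were inside the reference range.

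The highest gene of chromosome IX in 14-6-d was BAR1, the protease of a cells that cleaves alpha factor. It had levels of 4.50 and 4.87, near the RM11 mean of 4.72, and a difference of 2.87 that did not pass, and the reference segregants ranged from -1.45 to 7.16. LYS1, the last enzyme of lysine synthesis, had levels of 2.90 and 3.08, against a reference range of -0.96 to 3.06 and a median of -0.28, a difference of 2.84. HIS5, of histidine synthesis, had 3.00 and 3.27 against a reference maximum of 2.46, a difference of 2.74. Both passed as higher. DCG1 (2.12), YIR042C (1.90), NIT1 (1.74), YIL165C (1.70), the allantoinase gene DAL1 (1.54) and CFD1, of iron-sulfur cluster assembly (1.53), passed as higher. QDR2, a drug transporter, did not pass at a difference of 1.82, and its levels were 0.10 and 2.39.

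A single gene of chromosome IX passed as lower in 14-6-d. It was YIR043C, at -1.49 and -1.43, with a difference of -1.64, as an average of 2 probes. The retrotransposon frame YIL082W-A was at -4.42 and -4.47, close to the RM11 mean of -4.56, and did not pass at a difference of -2.005. XBP1, a stress-induced repressor, stood at -1.50, OM45, a protein of the outer mitochondrial membrane, at -1.22, RPI1 at -0.95 and the glutathione transferase gene GTT1 at -0.73. POT1 (-0.62), SDP1 (-0.54), IRC24 (-0.33) and EPS1 (-0.28) followed, the last with levels of -1.40 and 0.65. These 8 were inside the reference range.

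On chromosome IV the highest gene of 14-6-d was LYS20, the homocitrate synthase that begins lysine synthesis. It had levels of 2.29 and 2.58, against a reference range of -1.15 to 2.60, and a difference of 2.36. TRP4, of tryptophan synthesis, had 2.36 and 2.54 against a reference maximum of 1.63, and HOM2, of homoserine synthesis, had 1.96 and 2.45 against 1.81. GGC1, the mitochondrial guanine nucleotide carrier (2.01), ATO3, a membrane protein linked to ammonium export (1.88), UGA3, an activator of gamma-aminobutyrate use (1.86), LYS4 (1.85) and AAD4 (1.83) passed as higher. ENA2 and ENA5, copies of the sodium pump, had levels of 1.00 and 1.27 and of 0.99 and 1.17. Both lay above their reference maxima of 0.58 and 0.74, but neither passed at 2 SDs, since their reference values spread down to -2.91 and -4.73. Probes of these near-identical copies cannot be told apart.

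The 8 genes of chromosome IV that passed as lower in 14-6-d were led by sugar transporters. HXT6 and HXT7, near-identical high-affinity glucose transporters, had levels of -2.38 and -1.65 and of -2.24 and -1.46, against reference medians of 0.34 and 0.37. Their differences were -2.32 and -2.16. INH1 and STF1, which restrain the mitochondrial ATP synthase, had differences of -1.61 and -1.03. SED1, a cell wall protein, was at -1.51, COS7, of a subtelomeric family, at -1.36, TMA17, a proteasome assembly factor, at -1.02, and MTH1, a regulator of hexose transporter genes, at -0.72. SED1 and MTH1 were the 2 of 699 genes whose culture mean was below that of every reference segregant. STF1, TMA17 and MTH1 were outside the named extremes and were picked after their values were seen, to complete the count of 8. HO, at -3.18 and -4.44, was near its level in RM11 (-4.37), which lacks it. FMP45, FMP16, RTN2 and CCW22 had differences of -1.48, -1.31, -1.25 and -1.09 without passing.

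**Figure D4:**
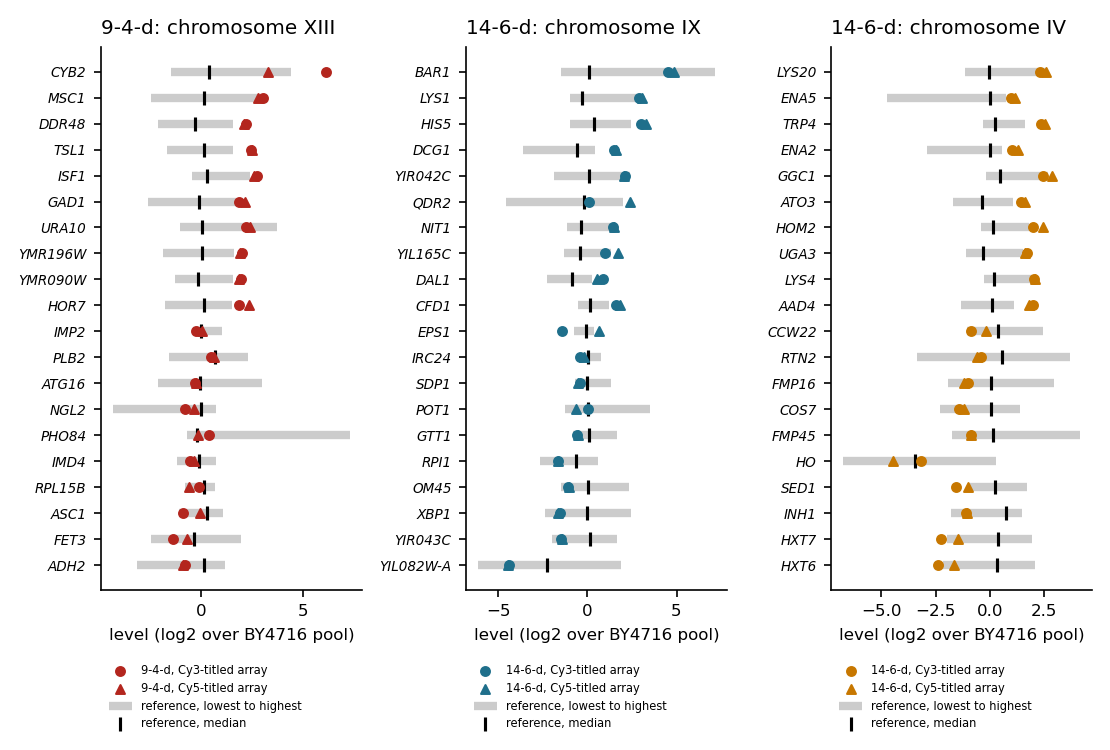
Levels (log2 over the BY4716 pool) of the 10 highest and 10 lowest genes by difference on chromosome XIII in segregant 9-4-d and on chromosomes IX and IV in segregant 14-6-d; circles and triangles are the Cy3-titled and Cy5-titled arrays, grey bars the range and ticks the median of the reference segregants. HXT6 and HXT7 lie around the low ends of the grey bars on a raised chromosome, and the arrays of CYB2 lie far apart.

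The arrays do not read alleles, but some genes of the raised chromosomes differ in level between the parents. Genes were taken whose RM11 and BY4716 means differed by at least 2-fold, all 4 pairs of an RM11 and a BY4716 culture having the same sign. On chromosome XIII there were 27 such genes, and the level of 9-4-d was nearer to RM11 in 11 and nearer to BY4716 in 16. The counts did not change once the median of the chromosome was subtracted. In 14-6-d chromosome IX had 14 such genes, 3 nearer to RM11 and 11 nearer to BY4716, or 5 and 9 with the chromosome median subtracted. Chromosome IV had 34, of which 10 were nearer to RM11 and 24 to BY4716, or 11 and 23.

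Among these genes the retrotransposon frames of chromosome XIII had levels in 9-4-d far above those of RM11. YMR046C was at 0.81 and -0.09, against -0.11 in BY4716 and -8.04 in RM11, and YMR045C was at 0.79 and -0.12, against 0.25 and -5.10. Such elements occur in many similar copies, so their probes also read copies on other chromosomes. On chromosome IV of 14-6-d SOR2, a sorbitol dehydrogenase gene, was at -0.12 and -0.39, against -0.52 in BY4716 and -6.24 in RM11, whereas HO was near its RM11 level. ENA5 was at 0.99 and 1.17 in 14-6-d, against -0.03 in BY4716 and -3.34 in RM11. On chromosome IX the sensor kinase gene SLN1 was at 0.27 and 0.39 in 14-6-d, against -0.07 in BY4716 and -1.66 in RM11, and PRM5 was at 0.36 and 0.30, against -0.18 and -1.85. Several of these RM11 levels were at or below that of HO (-4.37), which RM11 lacks.

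Away from chromosome XIII, 9-4-d had 46 genes that passed as higher and 152 that passed as lower, or 0.997 percent and 3.3 percent of 4613. Its level was above every reference segregant in 34 of these genes, or 0.737 percent, and below every one in 104. The same rule, with each reference segregant set against the others, gave a median of 23 higher genes (range 3 to 362) and 18.5 lower genes (range 2 to 499). For lower genes 9-4-d was exceeded by 6 of 80 reference segregants, and for higher genes by 22.

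AQY1, a water channel, was the highest of these genes in 9-4-d, with levels of 5.07 and 5.04 against a reference range of -1.39 to 4.30, a difference of 4.49. PUT4, the proline permease, had 4.67 and 4.51 inside a reference range of -0.25 to 5.51, a difference of 3.07. NCA3 (2.13) and HXT5, a hexose transporter of slow growth (2.10), also passed as higher. The stress genes SPI1 (2.85), DDR2 (2.53), HSP12 (2.42) and FMP45 (2.24), with YHR033W (2.20) and ZPS1 (2.36), had large differences that did not reach 2 SDs. MF(ALPHA)1 and STE3, at 2.28 and 2.07, are alpha-specific genes. The largest falls in 9-4-d were those of DSE2, a daughter-cell glucanase with levels of -7.98 and -5.25 (difference -4.96), ARG3, of arginine synthesis (-2.87), and TPO1, a polyamine exporter (-2.20). SCW11 (-3.41), DSE1 (-3.07), TIP1 (-2.07), the asparaginase genes ASP3-1 to ASP3-4 (-4.27 to -1.87), URA3 (-3.31) and LEU2 (-2.54) were low without passing. DSE2, ASP3-1, ASP3-2 and ASP3-3 had levels between -8.09 and -4.84, and how low the signal of these probes can go was not tested.

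Of the gene lists, that of ribosomal proteins had the most genes that passed as lower in 9-4-d. Off chromosome XIII, 62 of 116 genes of the cytosolic ribosome passed as lower, against 3.3 percent of all genes there, and 115 were below the reference mean. Their median was -0.65, against -0.09 over all genes off chromosome XIII, and 77 of 80 reference segregants lay above it. RPS9B (levels -1.22 and -0.56), RPL9A (-1.30 and -0.46) and RPS21B (-1.06 and -0.51) had differences of -0.95, -0.95 and -0.91. Many of these genes are pairs of similar copies, which a probe may not tell apart. The 65 genes of ribosome biogenesis had a median of -0.37, with 63 below the reference mean and 0 passing.

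Stress genes lay on the other side in 9-4-d. Off chromosome XIII the general stress list had a median of 0.80, with 28 of 30 genes above the reference mean, but 1 of them passed, GAC1, a regulator of glycogen synthesis (levels 1.22 and 1.43). The list varies widely among segregants, from -1.14 to 1.23, and 11 of 80 reference segregants lay above 9-4-d. Genes of daughter cell separation had a median of -1.30, below all 80 reference segregants, with 11 of 11 below the reference mean. In 14-6-d these genes were also below the reference mean, apart from PIR1 (0.21), down to -2.19 for DSE2, without passing. In 9-4-d DSE2, the glucanase DSE4 (-1.71) and BUD9, a bud site marker (-1.30), passed as lower. The culture means of DSE4 and BUD9 were below every reference segregant. Those of the other members, DSE2 among them, were inside the reference range. Reference levels spread from -5.46 to 0.80 for DSE1 and from -7.12 to 0.96 for DSE2, with medians of -0.14 and -0.05. Amino acid starvation genes had a median of -0.45, below 77 reference segregants, and ARO2 (-0.85), ARO4 (-0.80) and THR1 (-0.80), of aromatic and threonine synthesis, were the 3 of 28 that passed as lower. Over all genes off chromosome XIII 3.3 percent passed as lower.

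Smaller counts were found in other lists of 9-4-d. Over all 4613 genes off chromosome XIII, 0.997 percent passed as higher and 3.3 percent as lower, and a count of 1 or 2 genes cannot be told from such shares. Chaperones had 3 of 25 genes lower, STI1 (-0.85), YDJ1 (-0.66) and AHA1 (-0.63), with a median of -0.19. Ergosterol synthesis had 2 of 18 lower, ERG10 (-0.83) and NCP1 (-0.68), with a median of -0.26. The iron regulon had a median of -0.28, below 78 reference segregants, with 0 of 16 passing. Fatty acid oxidation had 2 of 20 higher, TES1 (0.82) and FAA2 (0.76), with a median of 0.21. Genes of the respiratory chain (35) and of the mitochondrial ribosome (60) had medians of 0.00 and 0.01, with 0 passing in either. The proteasome had a median of -0.14, with UBI4, a polyubiquitin gene (0.66), the 1 of 34 that passed as higher.

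Away from chromosomes IX and IV, 14-6-d had 78 genes that passed as higher and 261 that passed as lower, or 1.71 percent and 5.72 percent of 4564. Its level was above every reference segregant in 60 of these genes, or 1.31 percent, and below every one in 277. The reference segregants had medians of 23 higher genes (range 2 to 379) and 19 lower genes (range 3 to 476) under the same rule. For lower genes 14-6-d was exceeded by 4 of 80 reference segregants, and for higher genes by 14.

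Off the raised chromosomes the lowest gene of 14-6-d was HSP12, a membrane stress protein. It had levels of -4.71 and -4.55, inside a reference range of -5.20 to 3.17, and a difference of -4.66. YGP1, a secreted glycoprotein of nutrient limitation, had -3.87 and -4.14 against a reference minimum of -3.02. GPH1, the glycogen phosphorylase, had -3.39 and -4.05 against -2.99. HXT4, a glucose transporter (-3.18), and DDR2, a stress protein (-2.94), also passed as lower. The alpha-specific MF(ALPHA)1 (-3.19), SOL4, of the pentose phosphate pathway (-2.96), and LEU2 (-2.95) were among the 12 without passing. TSL1, MSC1, HOR7 and GAD1 of chromosome XIII were among the lowest here, at -3.22, -3.25, -3.17 and -3.04, and all passed as lower. In 9-4-d, where their chromosome was raised, their differences were 2.42, 2.67, 1.97 and 2.17, against the same reference segregants.

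Off the raised chromosomes the general stress list had a median of -1.91 in 14-6-d, against -0.08 over all genes there. All 29 measured genes were below the reference mean, 16 passed as lower, and the median lay below all 80 reference segregants, whose lowest was -1.18. Respiratory genes were low with it. The respiratory chain and ATP synthase list had a median of -1.10, with 24 of 31 genes lower and 79 of 80 reference segregants above it. CYT1, cytochrome c1, had levels of -1.30 and -1.07 (difference -1.88), RIP1, the Rieske protein, -0.89 and -0.73 (-1.73), and SDH2, of succinate dehydrogenase, -0.85 and -0.85 (-1.61). In the citric acid cycle MDH1 (-1.60), CIT1 (-1.39), LSC2 (-1.24) and LSC1 (-0.97) passed as lower and MAE1, the malic enzyme, as higher (1.72), of 16 genes. The mitochondrial ribosome had a median of -0.37, with 4 of 55 genes lower, led by MRPS12 (-0.75). Over all genes off chromosomes IX and IV 5.72 percent passed as lower, so the count of the mitochondrial ribosome was near that share.

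Amino acid genes were on the higher side in 14-6-d, where 1.71 percent of all genes off the raised chromosomes passed as higher. Leucine and branched-chain synthesis had a median of 1.22 off the raised chromosomes, with 11 of 11 genes above the reference mean and BAT2 (1.45), ILV5 (1.38) and ILV6 (0.92) passing as higher. LEU2 is a gene of that pathway, and its level was low in 14-6-d and in 9-4-d alike. In 9-4-d the genes of this list off chromosome XIII had differences from -0.58 (LEU9) to 1.75 (LEU1). The part of LEU2 in these values was not tested. Methionine and sulfur assimilation had a median of 0.81, with 5 of 23 genes higher, among them MET13 (1.34), MET16 (1.30) and MET14 (1.16). Amino acid starvation genes had a median of 0.52, with 23 of 24 above the reference mean and ASN1, the asparagine synthetase (1.15), passing. The medians of these lists were exceeded by 4, 3 and 9 of 80 reference segregants. ARG1 (2.36) and HIS4 (2.24) were among the 12 highest genes off the raised chromosomes without passing. So were ZPS1, a zinc-responsive gene (2.87), and the strain marker LYS2, with levels of 4.08 and 4.60 (difference 2.42).

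The highest difference in 14-6-d was that of AAD6, of the aryl-alcohol dehydrogenase family, with levels of 3.66 and 3.76 against a reference maximum of 1.64, a difference of 3.43. AAD14 had 3.26 and 3.03 against 2.03, and AAD15 had 3.12 and 2.94 against 1.97. All 3 passed as higher, like AAD4 of chromosome IV, and probes of this family may read several copies. FRM2, a nitroreductase-like gene, had 2.02 and 2.44 against a reference maximum of 0.99, and MCH4, a transporter-like gene, had 2.27 and 2.47 against 2.30. In the oxidative stress list OYE3, an oxidoreductase (1.11), FLR1, a drug exporter (1.02), and GTT2, a glutathione transferase (0.73), passed as higher. SOD2, the mitochondrial superoxide dismutase (-1.55), SOD1 (-0.82), TSA1 (-0.75) and GPX2 (-0.71) passed as lower. The 21 genes of this list off the raised chromosomes had a median of -0.04. Over all genes there, 1.71 percent passed as higher and 5.72 percent as lower. The asparaginase genes ASP3-1, ASP3-2 and ASP3-3 were at -0.32 to 0.03 in 14-6-d, the level of the BY4716 pool, and their differences of 2.68 to 3.00 were taken against reference segregants that reached down to -9.65 for ASP3-3.

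Other lists had few passing genes in 14-6-d. Over all genes off chromosomes IX and IV, 1.71 percent passed as higher and 5.72 percent as lower. Cell wall genes had 4 of 24 lower, among them CWP2 (-2.01), SLT2, the kinase of the cell wall pathway (-0.79), and FKS1 (-0.77), with a median of -0.30. Ribosome biogenesis had a median of 0.33, with 55 of 56 genes above the reference mean and NOP16 (0.69) passing. The cytosolic ribosome had a median of -0.16, with 0 of 106 passing. Hexose transporters had HXT4 and HXT8 (-1.75) lower of 11. Ergosterol synthesis (median -0.26, 25 genes), pyrimidine synthesis (0.25, 11 genes) and arginine metabolism (0.76, 11 genes) had 0 passing.

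**Figure D5:**
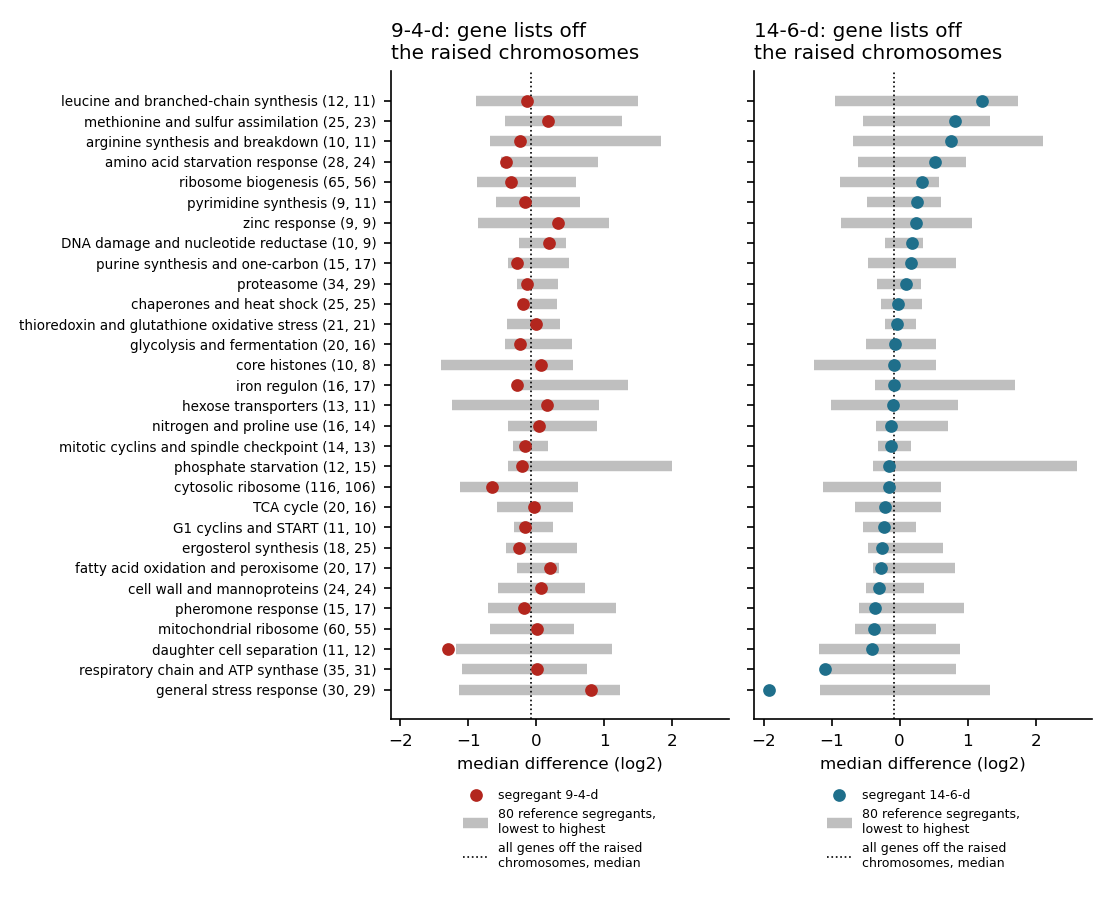
Median difference (log2) of gene lists over their members off the raised chromosomes, for segregant 9-4-d left and 14-6-d right; grey bars span the same median over 80 reference segregants, dotted lines mark the median of all genes off the raised chromosomes, and the numbers of genes in 9-4-d and in 14-6-d stand behind each name. Lists with few measured members there, and the lists of mating type, haploid and strain markers, are not drawn. The general stress response stands at 0.80 in 9-4-d and at -1.91 in 14-6-d, where it lies below the grey bar.

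Members of a list that lay on a raised chromosome were compared with the members elsewhere. In 9-4-d, 8 lists had at least 3 measured members on chromosome XIII and off it. Their median on the chromosome minus that off it was above 0 in all 8, from 0.79 to 1.34, with a median of 1.04. In 14-6-d it was above 0 in all 19 such lists, from 0.05 for methionine and sulfur assimilation to 1.12 for the respiratory chain, with a median of 0.82. Lists share some members, so they are not independent. The strains were chosen on the genes of these chromosomes, so values above 0 follow largely from that choice and support nothing further. Over all genes the same difference was 0.85 for chromosome XIII in 9-4-d, and 0.74 for IX and 0.78 for IV in 14-6-d.

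In 9-4-d the 8 cytosolic ribosome genes of chromosome XIII had a median of 0.15, against -0.65 for those elsewhere, and 0 passed. RPS1B had levels of 0.01 and 0.24, and RPL20A, the 1 of the 8 below the reference mean, had -0.45 and 0.37. The 7 stress genes of chromosome XIII had a median of 1.90, against 0.80 elsewhere, with TSL1 and HOR7 passing as higher. All 4 respiratory genes of chromosome XIII passed as higher, the NADH dehydrogenases NDE1 (1.61) and NDI1 (1.55), ATP18 (1.14) and COX7 (0.96). Of the mitochondrial ribosome 5 of 6 passed, led by MRPL3 (1.12), and of ergosterol synthesis 4 of 7, led by ERG5 (1.19). The share of all genes of chromosome XIII that passed was 63.4 percent.

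In 14-6-d the 10 respiratory genes on the raised chromosomes had a median of 0.02, near the reference mean, against -1.10 for the 31 elsewhere. ATP17, a subunit of the ATP synthase, had levels of 0.24 and 0.66, and QCR7, of complex III, had -0.06 and -0.09, against reference medians of 0.30 and 0.22. The 7 stress genes on the raised chromosomes had a median of -0.97 and 0 passed as lower. TPS2, the trehalose phosphate phosphatase, had -0.76 and -0.83 there.

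All 6 lysine genes on the raised chromosomes of 14-6-d passed as higher, with a median of 1.80. They were LYS1 and LYS12 on chromosome IX and LYS4, LYS14, LYS20 and LYS21 on chromosome IV, of which LYS14 encodes the activator of the pathway, with levels of 0.98 and 1.04. The 2 lysine genes elsewhere had a median of 0.54 and 0 passed. All 7 amino acid starvation genes passed, with a median of 1.51, among them ARO3 (1.51). All 8 proteasome genes passed, with a median of 1.08, against 0.09 for the 29 elsewhere. RPT2, a proteasome ATPase, had levels of 1.35 and 1.56 against a reference range of -0.38 to 0.42, and RPN4, the activator of proteasome genes, had 1.38 and 1.12. Ribosome biogenesis had 10 of 13 higher, with a median of 1.02 and NOP1 (1.45), MAK21 (1.43) and UTP4 (1.34) in the lead. The cytosolic ribosome had 5 of 21 higher, with a median of 0.51, against -0.16 elsewhere, and RPL35A (0.78) in the lead. The shares of all genes that passed were 51 percent on chromosome IX and 57.9 percent on chromosome IV.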

How the data were processed

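Transcript levels were compared on 180 arrays of 90 cultures. The deposited values are log ratios of a culture over the BY4716 pool, read here as log2 ratios; their base, and the authors' scanner, background correction and dye normalization, are not given in the sources used here. The authors' table has a mean of 0 on every array, and both dye orientations point the same way. Signal intensities were not used, so the number of arrays limits the precision.

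Of 7085 probes, 5645 carried 1 gene symbol and 1440 none. All 5645 were found in the RefSeq gene table (R64), from which only names and gene order were taken. Averaging the 2 probes of 40 genes left 5605 genes. Both arrays of a culture were averaged. Each strain was then set against the 80 segregants without a raised chromosome with Python 3.11.15, numpy 2.4.6 and pandas 2.3.3, with no test, because the strains were chosen on these values and had 1 culture each. A known shift was added to the values of reference segregants and was returned by the steps, which checks the code and not the results. Figures were drawn with matplotlib 3.10.9.

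The strains, the 35 gene lists, the limits and the rules were chosen with earlier results of these data known. Genes were named by rule: the 10 highest and 10 lowest differences per raised chromosome, the 12 highest and 12 lowest elsewhere with the same sign on both arrays, up to 3 passing genes per list and direction, up to 6 genes per chromosome that differ between the parents, largest parental difference first, and the mating and strain markers. A few further members of a list were named to show its range and were picked after their values were seen. The alternatives were other centrings of the arrays, quantile normalization, each dye alone, filters on missing values, the estimate of centre and spread, the reference segregants and the limits of a call.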

Additional observations from a re-analysis of the deposited data

Results flagged for a closer look

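The general stress response stood on opposite sides of the reference segregants in the 2 strains. Its median over genes off the raised chromosomes was 0.80 in 9-4-d and -1.91 in 14-6-d, against the same 80 reference segregants. The difference was not tested, since each strain had 1 culture. The median was inside the range of the reference segregants in 9-4-d and below all of them in 14-6-d. In the 4 segregants with chromosome II raised, the same list had medians of -0.67 (8-1-a), -1.27 (10-1-c), -0.65 (13-2-c) and -0.95 (15-5-b) off chromosome II.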

How the results depend on the processing

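The medians of the raised chromosomes kept their direction under all alternatives run. They lay between 0.52 and 0.85 for XIII in 9-4-d, 0.44 and 0.74 for IX in 14-6-d and 0.43 and 0.78 for IV in 14-6-d, and limits of 0.4 and 0.3 left the same reference segregants. Medians of gene lists were run under fewer alternatives, namely centring on the genes off chromosomes IV, IX and XIII, and each dye alone. Of 183 such medians 177 moved by less than the SD over reference segregants, and 0 reversed where the main value was past 1.5-fold. How the lists behave under quantile normalization and the remaining alternatives was not tested. All counts of passing genes depended on the limits, and depth is unknown, since signal intensities were not used here.

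Quantile normalization lowered the medians to 0.52 (XIII), 0.44 (IX) and 0.43 (IV), and the genes passing as higher to 118 on XIII, 49 on IX and 159 on IV. Off the raised chromosomes 15 genes were then higher and 86 lower in 9-4-d, with a median of -0.045, and 20 higher and 125 lower in 14-6-d. The interquartile range of the deposited values was 0.507 and 0.622 on the arrays of 9-4-d and 0.554 and 0.589 on those of 14-6-d, against a median of 0.405 on the reference arrays, and this method sets all arrays to 1 distribution. Centring each array on the genes off chromosomes IV, IX and XIII gave medians of 0.85 (XIII), 0.74 (IX) and 0.78 (IV). The genes off the raised chromosomes then had medians of -0.00038 in 9-4-d and -0.000996 in 14-6-d, with 83 lower in 9-4-d and 130 higher in 14-6-d. Centring on the array median gave 0.81 for XIII and -0.035 off it in 9-4-d.

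The Cy3-titled arrays alone gave 0.63 for IV, 104 higher genes off XIII in 9-4-d, and list medians of 0.57 (hexose transporters), 0.44 (DNA damage) and -0.28 (mitotic cyclins) in 9-4-d and -0.59 (hexose transporters) and -0.15 (oxidative stress) in 14-6-d. The Cy5-titled arrays alone gave 0.72 for IX, 0.78 for IV, 24 higher genes off XIII in 9-4-d and 0.14 for chaperones in 14-6-d. With a value required on every array, 1095 and 1101 genes were left. The median of XIII was then 0.69 with 62 higher genes, IX had 17 and IV 70 higher genes. Off the raised chromosomes 4 genes were higher and 52 lower in 9-4-d, with a median of -0.15, and 12 higher and 71 lower in 14-6-d, with a median of -0.11. With the median and its absolute deviation, 76 and 138 genes off the raised chromosomes were higher in 9-4-d and in 14-6-d. The cause of these shifts was not tested.

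At a minimum of 2-fold, 86 genes of XIII, 40 of IX and 131 of IV were higher, and off the raised chromosomes 20 were higher and 13 lower in 9-4-d and 34 higher and 119 lower in 14-6-d. With no minimum in SDs those counts off the raised chromosomes were 243 and 286 in 9-4-d and 202 and 465 in 14-6-d, and at 3 SDs they were 12 and 18 in 9-4-d and 24 and 91 in 14-6-d. No paired analysis was possible because each strain had 1 culture and no test was run.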

Other observations

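Several lists of cell cycle and nutrient genes held few passing genes off the raised chromosomes. Core histones had a median difference of 0.07 in 9-4-d (10 genes) and -0.08 in 14-6-d (8 genes), with 0 passing in either. Phosphate starvation genes had -0.21 in 9-4-d, where the acid phosphatase gene PHO3 passed as lower (-1.59), and -0.15 in 14-6-d. Zinc-responsive genes had 0.32 in 9-4-d and 0.23 in 14-6-d, with 0 of 9 passing in each. In the DNA damage list MAG1, a DNA glycosylase, passed as higher off chromosome XIII in 9-4-d (0.66), and on it RAD52, of recombination repair (1.17), and SML1, an inhibitor of ribonucleotide reductase (0.82). In 14-6-d DUN1, a damage checkpoint kinase (1.05), and DIN7 (0.77) passed as higher on chromosome IV. PLM2 on chromosome IV (-0.06) and RNR3 on chromosome IX (1.33) did not pass. The share of all genes that passed as higher was 63.4 percent on chromosome XIII in 9-4-d. In 14-6-d it was 51 percent on chromosome IX and 57.9 percent on chromosome IV. Off the raised chromosomes 0.997 percent of genes passed as higher and 3.3 percent as lower in 9-4-d. In 14-6-d those shares were 1.71 and 5.72 percent. A single passing gene of a list cannot be told from such shares.

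Probes without a gene name could not be placed on a chromosome. In 9-4-d 13 of 489 such probes passed as higher, or 2.66 percent, and in 14-6-d 28 of 742, or 3.77 percent. The reference segregants had median shares of 0.54 and 0.59 percent over the same probes, and highest shares of 6.24 and 5.43 percent. As lower, 12 of these probes passed in 9-4-d and 30 in 14-6-d.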
